A study of Sus scrofa with 9 samples.

Results

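CHRDL1 (chordin-like 1) and 9 other genes of bone morphogenetic protein (BMP) signalling were followed in outflow veins of pig arteriovenous fistulas, in which an artery is connected to a vein to give access for dialysis. The genes were the 10 of 30477 listed pig genes whose symbol equals CHRDL1, GREM1, NOG, BMP2, BMP4, BMP6, BMPR1A, BMPR2, ID1 or ID3, and each symbol stood on 1 row. CHRDL1 was chosen for its difference between these same groups, so its levels are a description, and no test of the group difference is given for any of the 10. All animals carried a chronic kidney disease model and a fistula between carotid artery and jugular vein made 28 days after the disease was induced. Veins were taken 28 days after surgery. The MSC group (6 libraries) had adipose-derived mesenchymal stem cells in Ringer's lactate laid on the outer wall of the vein at surgery, and the control group (3 libraries) was untreated. Strain, sex and age are not given in the labels. The names of control 2 and MSC 1 carry tags (NT and F, Allo and M) that the labels do not explain. Every library carries a number of its own in its description. Whether these stand for separate animals is not said, so the p-values given here measure the spread between libraries, which may be technical.

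BMPs are secreted ligands of the TGF-beta family. They bring together type I and type II receptors on the cell surface, which phosphorylate SMAD proteins that enter the nucleus with SMAD4 and switch on early target genes such as ID1 and ID3. Secreted antagonists of the chordin, gremlin and noggin kinds bind the ligands and keep them from their receptors. In blood vessels the pathway is known for its part in endothelial quiescence, smooth muscle phenotype and wall calcification, and loss-of-function mutations of BMPR2 cause heritable pulmonary arterial hypertension in humans.

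Library depth ran from 16939157 reads (MSC 2) to 47417606 reads (MSC 5). The vein wall was represented, with 10 of 10 smooth muscle, 8 of 8 endothelial and 8 of 8 fibroblast markers above the filter on low counts. Small non-coding RNA took 53.3% of reads in MSC 6, 40.4% in control 2 and 6.75% to 16.4% in the other libraries. MSC 5 and MSC 6 stood apart: their summed smooth muscle markers were 6471 and 6906 RPKM, against 179 to 1992 in the other 7 libraries, and MSC 6 also held 183 RPKM of skeletal muscle markers, against 0.0994 to 4.58. In MSC 6 protein-coding genes under 1500 bases lay a median of 0.97 above their across-library median on the log2 scale, and genes over 5000 bases lay 0.19 below it. All levels here are RPKM (reads normalised to gene length and library size), divided by a scaling factor per library, unless called deposited. A log2 difference is the fitted MSC minus control difference of log2(scaled RPKM + 1), which understates the change of low genes.

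CHRDL1, a secreted chordin-family protein that binds BMPs, was the antagonist with by far the highest level among the 3 listed and was higher in every MSC library than in any control after scaling. It is listed on chromosome X from 90703422 to 90827210 (ENSSSCG00000012576, 6519 bases). Control 1, control 2 and control 3 held 6.71, 2.95 and 4.43 RPKM. MSC 1 to MSC 6 held 29.3, 19.2, 48.6, 39.4, 15.1 and 22.2 RPKM. The controls thus sat together at the bottom, while the MSC veins spread widely with MSC 3 and MSC 4 on top. The means were 4.70 ± 1.90 RPKM (SD, n = 3) in controls and 29.0 ± 12.9 RPKM (SD, n = 6) in MSC veins, a ratio of 6.17, with a log2 difference of 2.34 ± 0.40 (SE). Between 544 and 13792 reads stood behind each value. The gene's listed span contains ENSSSCG00000045489, a coding gene without a symbol that had 16 reads over all 9 libraries.

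**Figure D1:**
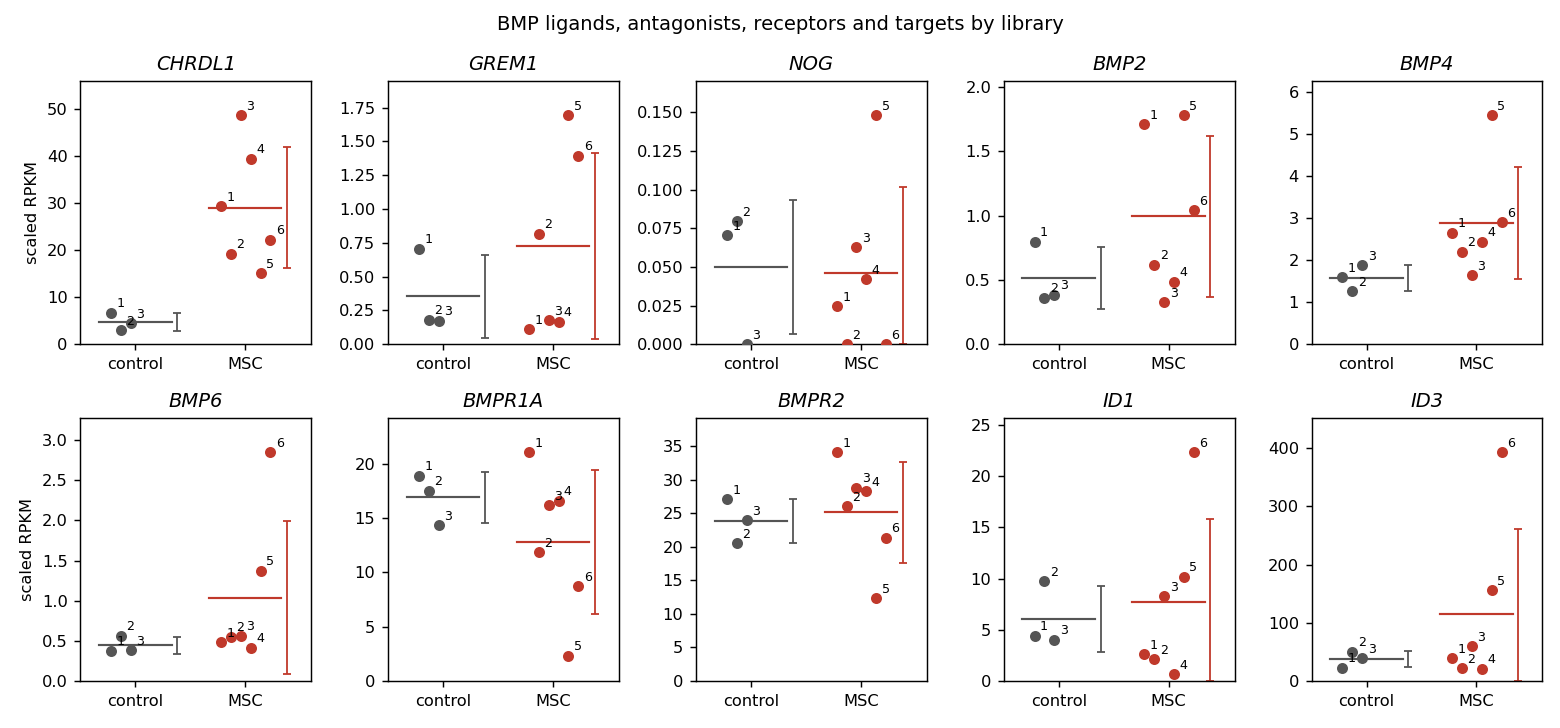
Scaled RPKM of each gene in the 3 control (grey) and 6 MSC (red) libraries, with the replicate number beside each point; lines are group means and the bars beside them SDs, cut at 0. CHRDL1 is the panel where the groups do not overlap (controls up to 6.71, MSC from 15.1), and GREM1, BMP6, ID1 and ID3 have their widest spread within the MSC group.

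Among all 17884 genes tested, 352 had every MSC library above every control (1.97%), and CHRDL1 was the 1 gene of the 10 to do so. This contrast chose CHRDL1, so nothing is read from that count. The separation depended on scaling. In deposited RPKM control 1 (9.66) stood above MSC 6 (9.02), so the groups overlapped and none of the 10 genes separated, against 0.883% of all genes with every MSC library above and 0.822% with every one below. Deposited means were 5.72 ± 3.74 RPKM (SD, n = 3) and 31.3 ± 19.0 RPKM (SD, n = 6), and the log2 difference was 2.16.

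Measures that need no scaling between libraries, taken up after the values were seen, placed CHRDL1 as follows. Among protein-coding genes past the filter, CHRDL1 stood within each library above 48.2% to 71.2% in controls and above 84.2% to 96.8% in MSC veins. Its level relative to BMPR2, a transcript of similar listed length, was 0.248, 0.143 and 0.185 in controls and between 0.737 (MSC 2) and 1.68 (MSC 3) in MSC veins. BMPR2 itself was lower in MSC 5 (12.3 RPKM) than in any control, which raised the ratio there. Against BMP4 the groups overlapped, since MSC 5 had a ratio of 2.78 and control 1 one of 4.21. Among the 10 genes, CHRDL1 ranked 4th or 5th by level in each control and 1st to 3rd in each MSC library.

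**Figure D2:**
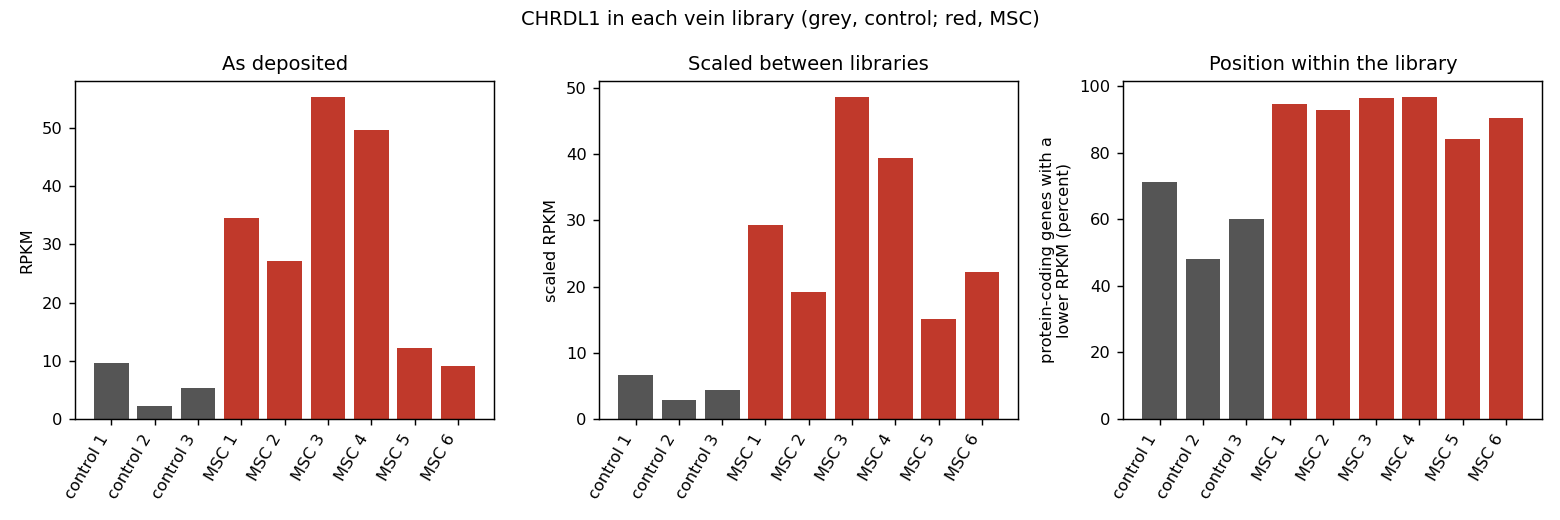
CHRDL1 in each library (bars from 0, grey for control, red for MSC) as deposited RPKM and as scaled RPKM. The right panel gives the percent of protein-coding genes past the filter with a lower RPKM in the same library. Control 1 (9.66) exceeds MSC 6 (9.02) in deposited RPKM only; by scaled RPKM and by position within the library all MSC bars stand above all control bars.

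CHRDL1 is X-linked, and Y-linked reads differed between the groups. EIF1AY and KDM5D together had 0 or 1 read in each control and 0 in MSC 3, against 571 to 5640 in the other MSC libraries. MSC 3, the 1 MSC library with no Y-linked read, held 48.6 RPKM of CHRDL1. Apart from MSC 3, Y-linked reads went with the MSC group. Their part in the CHRDL1 difference cannot be told apart from treatment and was not tested. Among the 4 libraries with fewer than 3 Y-linked reads the log2 difference was 3.18 ± 0.40 (SE), where the lone MSC library is assumed to vary like the controls. Marker genes of other cells also differed in direction between the groups: 10 of 10 smooth muscle genes had a positive log2 difference (median 1.58), and 6 of 6 T and NK cell genes a negative one (median −0.48). Summed T and NK cell markers overlapped, at 18.0 to 29.4 RPKM in controls and 4.85 to 37.8 RPKM in MSC veins. Summed macrophage markers were at 190 to 459 RPKM in controls and 78.6 to 232 RPKM in MSC veins. No marker passed the limma test, and their part in the CHRDL1 difference was not tested. Summed smooth muscle markers ran from 401 to 562 RPKM in controls and from 179 to 6906 RPKM in MSC veins. Summed fibroblast markers also overlapped between groups (8362 to 19365 and 9558 to 43516 RPKM). In whole tissue, a change in cell number and a change in RNA per cell cannot be told apart.

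GREM1 (gremlin 1; chromosome 1, 136617069 to 136629292), a secreted antagonist of BMP2 and BMP4, was low and split the MSC veins. Controls held 0.707, 0.181 and 0.174 RPKM. MSC 5, MSC 6 and MSC 2 held 1.69, 1.40 and 0.817 RPKM, above every control, while MSC 1, MSC 3 and MSC 4 held 0.112, 0.178 and 0.167 RPKM. The groups overlapped, with means of 0.354 ± 0.305 RPKM (SD, n = 3) and 0.727 ± 0.690 RPKM (SD, n = 6) and a log2 difference of 0.28 ± 0.31 (SE). Single libraries carried these means: leaving out control 1 lowered the control mean to 0.178 RPKM. Leaving out MSC 5 and MSC 6 lowered the MSC mean to 0.318 RPKM and turned the log2 difference to −0.05. In deposited RPKM MSC 6 (0.568) fell below control 1 (1.02).

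NOG (noggin; chromosome 12, 32891321 to 32892206), another ligand trap, was barely detected and was the 1 gene of the 10 that failed the filter. It had 4, 2 and 0 reads in control 1 to control 3 and 1, 0, 2, 2, 5 and 0 reads in MSC 1 to MSC 6. A count of 0 allows up to 0.064 RPKM in control 3 and 0.233 RPKM in MSC 6 (3 reads, counting error only), so a difference was not detectable at this depth.

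Of the ligands, BMP4 was the most abundant and BMP2 and BMP6 lay near or below 1 RPKM in most libraries. BMP4 (chromosome 1, 183416134 to 183792417) held 1.59, 1.25 and 1.88 RPKM in controls and a low of 1.64 (MSC 3), a median of 2.54 and a high of 5.44 (MSC 5) in MSC veins. In 5 of the 6 MSC libraries BMP4 was above every control, and MSC 3 lay between the controls. The log2 difference was 0.54 ± 0.29 (SE), with means of 1.58 ± 0.311 RPKM (SD, n = 3) and 2.88 ± 1.33 RPKM (SD, n = 6). In deposited RPKM MSC 6 (1.18) also fell below control 1 (2.29) and control 3 (2.23).

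BMP2 (chromosome 17, 15749835 to 15761215), a ligand known for its osteogenic activity, held 0.797, 0.361 and 0.386 RPKM in controls. In MSC veins it ran from 0.329 (MSC 3) over a median of 0.83 to 1.78 RPKM (MSC 5), with MSC 1 at 1.71. The groups overlapped and the log2 difference was 0.35 ± 0.26 (SE). BMP6 (chromosome 7, 5058817 to 5211316), known for its part in iron regulation and in endothelium, held 0.376, 0.565 and 0.384 RPKM in controls, and MSC 1 to MSC 4 held 0.414 to 0.563 RPKM. MSC 5 (1.37) and MSC 6 (2.85) stood above that band, so that the MSC mean of 1.04 ± 0.955 RPKM (SD, n = 6) was 0.676 RPKM without MSC 6. BMP6 overlaps TXNDC5 in the deposited coordinates and may share its reads; TXNDC5 was at 201 RPKM in MSC 5 and 85.7 in MSC 6, against 19.5 to 76.6 in the other libraries.

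The receptors were well expressed, and both had their lowest level in MSC 5. BMPR1A, a type I receptor (chromosome 14, 87742459 to 87891793), held 18.9, 17.5 and 14.3 RPKM in controls. In MSC 1 to MSC 6 it held 21.1, 11.9, 16.2, 16.6, 2.33 and 8.71 RPKM. MSC 1, MSC 3 and MSC 4 lay above the lowest control, and the other MSC libraries below every control. The log2 difference was −0.59 ± 0.53 (SE). Without MSC 5 and MSC 6 the MSC mean was 16.4 ± 3.77 RPKM (SD, n = 4), beside 16.9 ± 2.33 RPKM (SD, n = 3) in controls.

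BMPR2, the type II receptor (chromosome 15, 105970427 to 106135730), held 27.1, 20.6 and 24.0 RPKM in controls and 34.2, 26.1, 28.9, 28.3, 12.3 and 21.4 RPKM in MSC 1 to MSC 6. MSC 1, MSC 3 and MSC 4 were above every control and MSC 5 was below every control. Group means were 23.9 ± 3.27 RPKM (SD, n = 3) and 25.2 ± 7.54 RPKM (SD, n = 6), and the log2 difference was 0.02 ± 0.34 (SE), which turned to −0.15 in deposited RPKM. The ratio of BMPR1A to BMPR2, free of scaling, was 0.598 to 0.852 in controls, 0.454 to 0.617 in MSC 1 to MSC 4, 0.407 in MSC 6 and 0.189 in MSC 5. Both receptors are long transcripts (6427 and 7659 bases), and the part of the length shift of MSC 6 in these values was not tested.

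ID1 and ID3 encode inhibitors of basic helix-loop-helix transcription factors and are used as readouts of BMP signalling. ID1 (chromosome 17, 35315964 to 35317744) held 4.42, 9.74 and 4.03 RPKM in controls and 2.61, 2.11, 8.30, 0.647, 10.2 and 22.4 RPKM in MSC 1 to MSC 6. The MSC veins covered the whole range from below to above the controls. Means were 6.07 ± 3.19 RPKM (SD, n = 3) and 7.70 ± 8.11 RPKM (SD, n = 6); the MSC mean was 4.77 RPKM without MSC 6. The log2 difference was −0.16 ± 0.75 (SE), and it was 0.21 without MSC 4.

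ID3 (chromosome 6, 81422539 to 81424075) was the most abundant of the 10 genes in most libraries. It held 22.8, 50.003 and 38.6 RPKM in controls, 20.8 to 59.3 RPKM in MSC 1 to MSC 4, 156 RPKM in MSC 5 and 393 RPKM in MSC 6. The MSC mean of 115 ± 145 RPKM (SD, n = 6) was 59.2 RPKM without MSC 6 and 35.1 ± 18.2 RPKM (SD, n = 4) without MSC 5 and MSC 6, beside 37.2 ± 13.7 RPKM (SD, n = 3) in controls. Its log2 difference of 0.83 ± 0.87 (SE) became −0.14 without those libraries. ID3 is short (865 bases), and the part of the short-gene shift of MSC 6 in its level was not tested; MSC 5 had a short-gene median of 0.11.

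Of the 9 genes in the fit, 7 had a positive and 2 a negative log2 difference, with a median of 0.35. Over all 17884 genes the median was 0.04 and 55.3% of genes were positive. limma-trend called 0 genes higher (0%) and 0 lower (0%) at adjusted p of 0.05, with 729 (4.08%) at an unadjusted p under 0.05. limma-voom on recovered reads also called 0, with 809 at an unadjusted p under 0.05.

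The MSC veins were also compared by sequencing lane. Lanes 5 and 6 held both groups, and lane 7 held only MSC 2, MSC 5 and MSC 6. In the MSC veins CHRDL1 averaged 18.8 ± 3.54 RPKM (SD, n = 3) in lane 7 and 39.1 ± 9.67 RPKM (SD, n = 3) in lanes 5 and 6. BMPR1A and BMPR2 were also lower in all 3 lane 7 libraries, at 2.33 to 11.9 against 16.2 to 21.1 RPKM and at 12.3 to 26.1 against 28.3 to 34.2 RPKM. GREM1 was higher in all 3, at 0.817 to 1.69 against 0.112 to 0.178 RPKM. In scaled RPKM, separation of this kind held for 4 of the 10 genes and for 27.4% of all genes tested. For BMPR2 it depended on scaling. In deposited RPKM MSC 2 (36.7) stood above MSC 3 (32.8) and MSC 4 (35.7). limma-trend between the lane groups of the MSC veins, a contrast taken up after the values were seen, called 0 genes at adjusted p of 0.05 (0%; 24.7% at an unadjusted p under 0.05), with 0.163 for GREM1 and 0.165 for CHRDL1.

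Within lanes 5 and 6 alone, with 3 libraries of each group, the log2 difference of CHRDL1 was 2.84 ± 0.29 (SE). It was −0.21 ± 0.14 for GREM1, 0.08 ± 0.17 for BMPR1A, 0.34 ± 0.16 for BMPR2, −0.80 ± 0.63 for ID1 and 0.04 ± 0.43 for ID3. In lane 5 CHRDL1 was at 29.3 RPKM in MSC 1 and at 6.71 and 2.95 in the controls, and in lane 6 at 48.6 and 39.4 in MSC 3 and MSC 4 and at 4.43 in control 3. Lane 7 had no control, so lane and treatment cannot be told apart there.

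**Figure D3:**
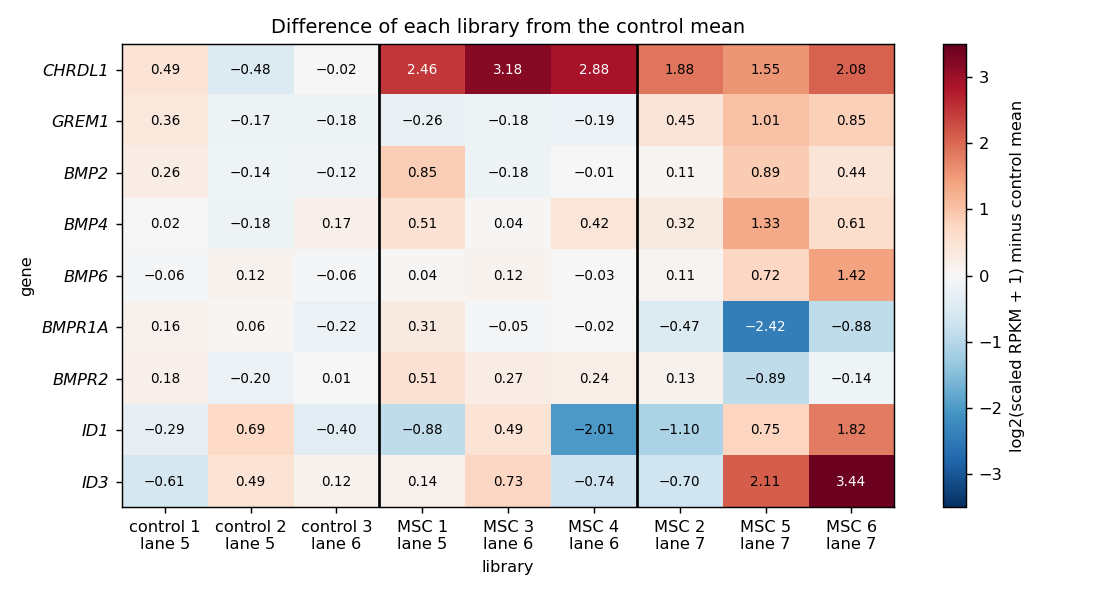
Difference of each library from the control mean, in log2(scaled RPKM + 1), for the 9 genes that passed the filter, with the lane under each library and lines between controls, MSC veins of lanes 5 and 6 and MSC veins of lane 7. CHRDL1 is positive in all 6 MSC libraries (1.55 to 3.18), while among the MSC veins GREM1 is positive in those of lane 7 and negative in those of lanes 5 and 6.

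Within the 6 MSC libraries, a spread that did not choose the genes, ID1 was compared with each of the other 9 genes on the log2 scale. ID1 and ID3 rose and fell together, with Pearson's r of 0.95 (exact two-sided permutation p of 0.00139, the smallest that 720 pairings can give; 0.0125 after Benjamini-Hochberg adjustment over 9 relations) and Spearman's rho of 1 (exact permutation p of 0.00278, adjusted 0.025). Without MSC 4 and MSC 6, the libraries farthest from the ID1 median, r was 0.90 over 4 libraries. The adjusted exact permutation p was 0.0875 with a pseudocount of 0.1 and 0.237 in deposited RPKM (r of 0.92 and 0.87). The share of all genes that follow ID1 this closely in the MSC veins was not tested. MSC 5 and MSC 6 had median correlations with the other libraries of 0.71 and 0.86, against 0.92 to 0.95 for the rest. ID3 has 865 bases and ID1 1554. The part of the short-gene shift of MSC 6 in this correlation was not tested.

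BMP6 was the 1 ligand with an adjusted p of r under 0.05, with r of 0.86 (exact permutation p of 0.00417, adjusted 0.0187) and rho of 0.94 (exact permutation p of 0.0167, adjusted 0.075). Without the same pair of libraries, which left MSC 5 in, r was 0.70, and the adjusted exact permutation p was 0.525 in deposited RPKM. BMP6 and TXNDC5, whose reads it may share, were both highest in MSC 5 and MSC 6. The part of TXNDC5 in this correlation was not tested, nor was the share of all genes that follow ID1 as closely as BMP6. CHRDL1 and ID1 gave r of −0.31 (exact permutation p of 0.532, adjusted 0.672) and rho of −0.31 (exact permutation p of 0.564, adjusted 0.634). For GREM1, NOG, BMP2, BMP4, BMPR1A and BMPR2 the adjusted exact permutation p of r ran from 0.487 to 0.731. Each lane held at most 3 MSC libraries, too few for a value within lanes.

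**Figure D4:**
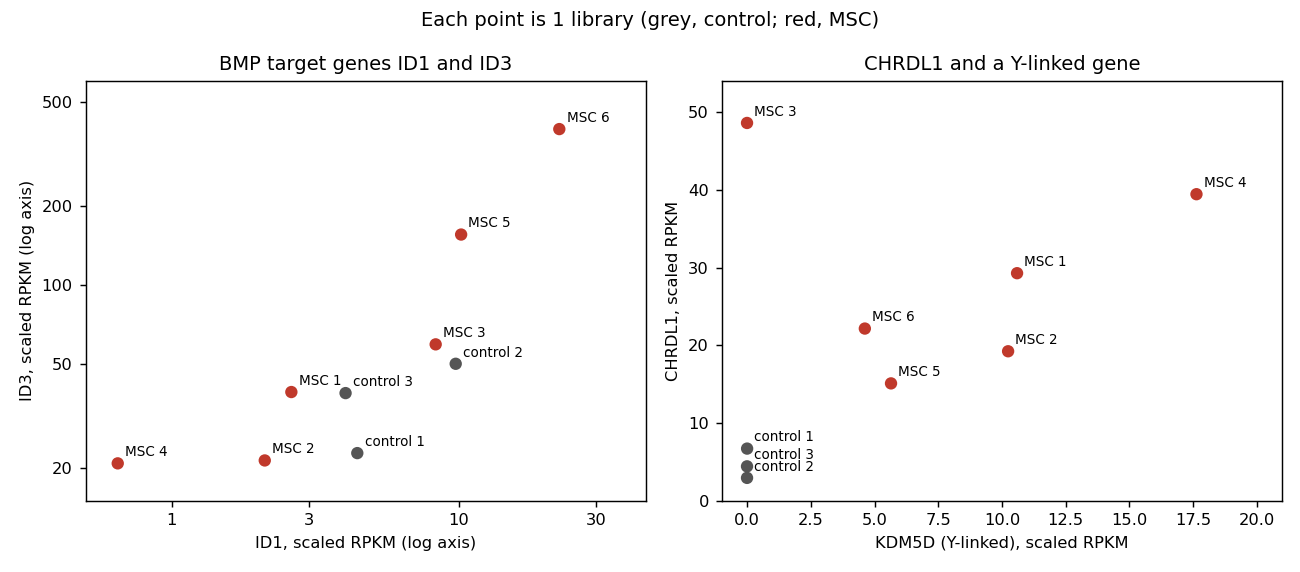
Each point is 1 library (grey, control; red, MSC). Left, ID3 against ID1 in scaled RPKM on log axes. MSC 6 (22.4 and 393 RPKM) and MSC 5 (10.2 and 156 RPKM) lie at the upper end. Right, CHRDL1 against the Y-linked gene KDM5D in scaled RPKM. MSC 3 is the 1 MSC library without KDM5D (CHRDL1 at 48.6 RPKM).

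The rest of the pathway was read from lists of 60 further genes, of which 57 were in the table and 47 passed the filter. limma-trend called 0 of the 47 in either direction over all genes, with a smallest adjusted p of 0.92, and limma-voom also called 0. Of the 47, 1 gene, GDF6, had an unadjusted limma-trend p under 0.05, beside 4.08% of all genes tested. Positive log2 differences numbered 30 and negative ones 17, with a median of 0.16. By list the medians were 0.29 for 5 ligands, 0.25 for 12 antagonists and −0.07 for 3 proteases (BMP1 and its relatives). They were −0.03 for 10 receptors, 0.08 for 8 SMAD relay genes and 0.25 for 9 target genes. Of the 47 genes, ACVR1 had every MSC library below every control, against 1.97% of all genes, and 0 had every MSC library above.

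The other ligands were low. BMP3, the most abundant of them, averaged 0.313 ± 0.138 RPKM (SD, n = 3) in controls and 1.23 ± 0.86 RPKM (SD, n = 6) in MSC veins, with MSC 3 and MSC 5 below the highest control. GDF6 averaged 0.0512 ± 0.0448 RPKM (SD, n = 3) in controls and 0.502 ± 0.388 RPKM (SD, n = 6) in MSC veins. It had 8, 3 and 0 reads in control 1 to control 3. The groups overlapped, with MSC 3 (0.0739 RPKM, 4 reads) below control 1 (0.0831 RPKM). BMP5 averaged 0.351 and 0.221 RPKM, and 0.104 RPKM in the MSC veins without MSC 2.

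FSTL1 and MGP were far more abundant than CHRDL1. FSTL1, a secreted follistatin-like glycoprotein, averaged 761 ± 133 RPKM in controls (SD, n = 3) and 836 ± 279 RPKM in MSC veins (SD, n = 6). The ratio of CHRDL1 to FSTL1 was 0.0039 to 0.0106 in controls and 0.0213 to 0.0509 in MSC veins. FSTL1 itself was at 414 RPKM in MSC 5 and 580 RPKM in MSC 6, below every control (630 to 896 RPKM), which raised their ratios. MGP, an inhibitor of vascular calcification that binds BMPs, held 406 to 546 RPKM in controls and from 536 (MSC 5) to 5756 RPKM (MSC 6) in MSC veins, with a log2 difference of 1.40 ± 0.84 (SE; limma adjusted p of 0.92). Without MSC 6 its MSC mean moved from 1871 to 1094 RPKM. MGP is short (1088 bases), and the part of the short-gene shift of MSC 6 in its level was not tested. CRIM1, a membrane protein with chordin-like repeats, had its highest level in MSC 5 (48.6 RPKM) and overlapped between groups. CHRD, the founding member of the chordin family, averaged 2.01 ± 1.38 RPKM (SD, n = 3) in controls and 3.61 ± 4.91 RPKM (SD, n = 6) in MSC veins. MSC 5 (13.5 RPKM) carried that mean, which was 1.62 ± 0.842 RPKM (SD, n = 5) without it and so below the controls; the control mean was 1.27 RPKM without control 2. CHRD lies outside the rule for named genes and is given as the relative of CHRDL1.

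BMP1, TLL1 and TLL2 encode related proteases, of which BMP1 and TLL1 cleave chordin. BMP1 was the most abundant, at 12.3 to 28.0 RPKM in controls and 16.1 to 112 RPKM in MSC veins, the top value being MSC 5. TLL1 averaged 2.96 and 2.41 RPKM and TLL2 0.231 and 0.167 RPKM in controls and MSC veins. Without control 1 the control means were 1.65 and 0.101 RPKM, below those of the MSC veins.

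ACVR1, a type I receptor, held 13.5 to 15.01 RPKM in controls and 7.91 to 11.7 RPKM in MSC veins, without overlap. In deposited RPKM the groups overlapped, with control 2 at 11.3 and MSC 2 at 15.99 RPKM. Its log2 difference of −0.49 ± 0.23 (SE) did not pass (limma adjusted p of 0.92). NEO1, a receptor that binds the BMP co-receptors of the RGM family, averaged 13.9 and 12.8 RPKM. ENG, the endothelial co-receptor endoglin, held 4.37 to 6.86 RPKM in controls and 3.55 to 5.48 RPKM in MSC 1 to MSC 4, with 20.2 in MSC 6 and 46.1 in MSC 5.

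In the SMAD relay, SMAD4, the shared partner of activated SMADs, averaged 39.9 ± 3.68 RPKM (SD, n = 3) and 38.3 ± 15.4 RPKM (SD, n = 6). SMAD5, a BMP-activated SMAD, averaged 18.1 and 16.0 RPKM, and SMURF2, a ubiquitin ligase of the pathway, 23.4 and 22.3 RPKM. All of these had their lowest value in MSC 5, at 10.3, 3.23 and 7.08 RPKM. Without MSC 5 their MSC means were 43.9, 18.6 and 25.4 RPKM, above the control means. Among other targets ID2, a relative of ID1, averaged 15.3 ± 0.59 RPKM (SD, n = 3) in controls. In MSC veins it ran from 11.5 to 37.9 RPKM, highest in MSC 6. ID2 is also short (1332 bases), and the part of the short-gene shift of MSC 6 was not tested. ID4 averaged 4.21 and 5.76 RPKM and HES1 3.45 and 3.98 RPKM, with 3.20 RPKM for HES1 in the MSC veins without MSC 5.

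**Figure D5:**
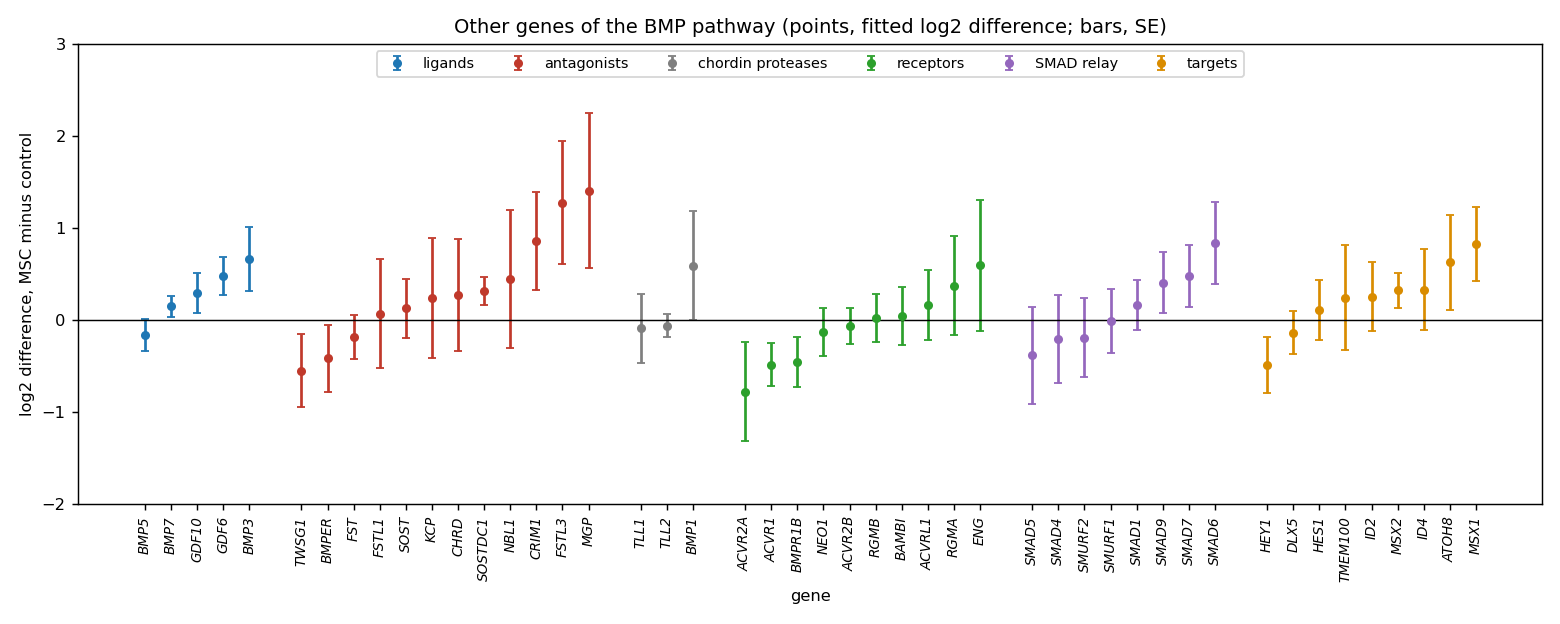
Fitted log2 differences (MSC minus control, points) with SE (bars) for the 47 other BMP pathway genes that passed the filter, grouped by role and ordered by value within each role. MGP (1.40) and ACVR2A (−0.78) mark the ends, and none passed the limma test.

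The genes whose pattern over the 9 libraries was most like that of CHRDL1 were taken from 10318 protein-coding genes with a symbol and a mean of at least 1 RPKM. They were OPTN, SRPX, DDO, FBP1 and MFAP5, with a likeness (correlation of log2 levels, a description that includes the group difference) of 0.94, 0.94, 0.94, 0.93 and 0.91. With group means subtracted the likeness was 0.72, 0.69, 0.59, 0.61 and 0.76. SRPX, a sushi-repeat protein, is also X-linked and held 25.1 to 36.6 RPKM in controls and 43.6 to 66.5 RPKM in MSC veins. DDO, the D-aspartate oxidase, held 0.286 to 1.12 and 2.31 to 3.38 RPKM. OPTN, an autophagy receptor, held 13.2 to 14.6 and 17.9 to 25.4 RPKM. FBP1, a gluconeogenic enzyme, held 0.382 to 1.03 and 3.27 to 12.97 RPKM. MFAP5, a microfibril protein, overlapped slightly, with 32.1 RPKM in control 1 and 32.0 RPKM in MSC 5. In deposited RPKM the groups overlapped for OPTN, SRPX and DDO as well. OPTN overlaps MCM10 and SRPX a U6 gene in the deposited coordinates.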

How the data were processed

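The RNA-seq libraries took 0.5 µg of vein RNA each into a TruSeq V2 kit, per the labels' protocols. The authors deposited 1 table of RPKM values with gene coordinates and lengths, as named per the file headers. Aligner, counter, strand setting and annotation release are not given in the sources used here. Per the submitters' processing notes the builds were mm10 and susScr11, with no role stated, so coordinates are printed as the table gives them. Multiplied by gene length plus 1, the deposited values were whole multiples of 1 step per library (100% within 0.01 of a whole number), which gave read numbers.

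The low-value filter asked for 15 reads over all libraries and, in 3 or more of them, 10 reads at the median depth; 17884 genes passed. RPKM was divided by factors of the trimmed mean of M-values from the kept reads, and limma 3.58.1 (R 4.3.3) with a trended prior was fitted to log2(scaled RPKM + 1) with all 9 libraries, with Benjamini-Hochberg adjustment over all genes. The plan named a count test for counts and this one for RPKM. The fit was tested on simulated reads with a common spread and no outlying library, so that test does not cover libraries such as MSC 5. Of 14012 rows without a symbol, 785 took one from a gene name table; the 10 genes were matched by the deposited symbol alone. The genes and lists were chosen with earlier results of these data known. Named were the 10 genes, the 3 most abundant of each pathway list and any past the test, and the 5 genes most like CHRDL1. Median log2 differences of the other marker lists were 0.43 (skeletal muscle), −0.06 (adipocyte), −0.86 (B and plasma cell), 0.06 (fibroblast), 0.34 (endothelium) and −0.39 (macrophage). Alternatives were other scaling, pseudocounts of 0.1 and 0.5, other filters, limma-voom on recovered reads, lane or replicate number in the model and subsets of libraries. A single read on a 2 kb gene came to between 0.0105 and 0.0295 deposited RPKM, which limits low values.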

Additional observations from a re-analysis of the deposited data

Results flagged for a closer look

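Of 33 genes examined in the 6 MSC libraries on the log2 scale, 4 had 1 library set well off from the remaining 5. About 1 in 20 (1.65 genes) would be so by chance if the genes varied independently. The genes share the same 6 libraries, so the 2 numbers cannot be weighed against each other. BMP5 stood above the others in MSC 2, at 0.802 RPKM. NEO1 stood below in MSC 6, at 8.04 RPKM. SMAD4 and SMURF2 stood below in MSC 5, at 10.3 and 7.08 RPKM. None of the 10 genes described first was among them, and the 3 controls were too few to examine.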

How the results depend on the processing

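CHRDL1 kept a positive log2 difference in all 23 alternatives (2.08 to 3.18) and moved by more than its residual SD in 1 of them, the 4 libraries with fewer than 3 Y-linked reads (3.18). In those libraries BMP2 was at −0.18 and BMP4 at 0.0448, and 23 genes were called higher over the whole table. BMP4 and BMP6 were positive in all alternatives, and ID3 in all but the one without MSC 5 and MSC 6 (like scaling on all genes, an alternative added after the data were seen). The sign changed in 8 alternatives for BMPR2 (−0.18 to 0.38), 5 for ID1 (−0.88 to 0.49), 4 for GREM1 (−0.21 to 0.55), 2 for BMPR1A (−0.77 to 0.19) and 1 for BMP2 (−0.18 to 0.73); the causes were not tested.

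Leaving out each library in turn gave 0 to 1 genes higher and 0 to 21 lower over the whole table (21 lower and 1 higher without control 1, 1 lower without MSC 2, 2 lower and 1 higher without MSC 3), and 2 higher and 2 lower passed in lanes 5 and 6 alone. No other BMP pathway gene passed in any alternative. In deposited RPKM the correlation of ID1 with BMP2 was −0.19 and with BMP4 −0.41, both reversed, with BMP6 0.69 and with ID3 0.87. With a pseudocount of 0.1 it was 0.84 for BMP6 and 0.92 for ID3, both no longer past the threshold.

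The labels state no pairing of libraries by replicate number. Deviations of same-numbered control and MSC libraries had correlations across genes of −0.19, −0.36 and −0.18. With so few controls these values cannot settle whether the libraries were paired. With the replicate block 0 genes passed, and the CHRDL1 difference was 2.51 ± 0.32 (SE), resting on MSC 1 to MSC 3.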

Other observations

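Low antagonists CHRDL2 and SOST had most of their reads in MSC 5. CHRDL2, a chordin-like protein that failed the filter, had 316 reads (5.28 RPKM) there and 2 to 5 reads in each of the other 8 libraries. SOST, the bone-derived antagonist sclerostin, passed the filter with 158 reads in MSC 5, 81 in control 1 and 0 to 10 in the others. These genes were picked after their values were seen, and a single library cannot be tested against the rest.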
